A study of Mus musculus with 11 samples.

Results

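The enzymes described here carry tryptophan towards NAD in the liver, except Acmsd, which draws an intermediate away from that route. They are Tdo2, Afmid, Kmo, Kynu, Haao, Acmsd and Qprt, chosen by name as 7 rows of a table of 20893 genes, and all 7 passed the filter on low values that left 14244 genes for testing. RNA was sequenced from the homogenized livers of 11 C57BL/6 mice. The 4 control livers came from mice with the genotype ROSA26-rtTA-IRES-EGFP; WT, and the labels list them with 7 days of doxycycline food. The 4 livers called 3-day here and the 3 called 7-day came from ROSA26-rtTA-IRES-EGFP; tetYAP mice fed doxycycline for 3 or 7 days. In the methods of the study, tet-YAP is a YAP S127A transgene in the Col1A1 locus, combined with an rtTA activator in the ROSA26 locus and with Cre under the albumin promoter (Alb-CRE). The study names the line R26-lsl-rtTA, where lsl commonly stands for a loxP-flanked stop that Cre removes, and doxycycline is needed for rtTA to act. Neither the age of the mice nor the Cre status of the controls is given in the labels, and it is therefore not known from them whether controls carried an active rtTA. The row of mouse Yap1 did not check the induction: control livers held 13.9 to 21.1 eRPKM, 3-day livers 15.3 to 19.3 and 7-day livers 17.4 to 19.0, and reads from the transgene are not told apart in it. The unit, eRPKM, counts the exonic reads of a gene for every kilobase of exon, after scaling to the size of the library.

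The liver breaks down most of the body's tryptophan through the kynurenine pathway. Tdo2, which hepatocytes express in place of the inducible dioxygenase of immune cells, opens the indole ring and commits tryptophan to the route. Afmid removes the formyl group to give kynurenine, Kmo hydroxylates kynurenine at the outer mitochondrial membrane, Kynu splits the product to hydroxyanthranilate, and Haao opens that ring to an unstable semialdehyde. The pathway forks there: the semialdehyde can close without an enzyme to quinolinate, which Qprt turns into nicotinate mononucleotide, a precursor of NAD, or Acmsd can remove a carboxyl group and send it towards glutarate and full oxidation.

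Haao makes the intermediate at this fork, and in the fit over all livers it had the largest of the log2 fold changes of the enzymes at 7 days against control. Its proximal promoter is shown for that reason, as the 250 bases before the start given by RefSeq (GRCm38.p6), 5′ to 3′ on the strand of the gene. The window had 1 match near its gene in mm9, the build of the files, at chr17:84246131-84246380 (minus strand), directly before the first base of the GENCODE M1 gene and outside annotated exons. Capitals mark matches to the letters searched.
Haao: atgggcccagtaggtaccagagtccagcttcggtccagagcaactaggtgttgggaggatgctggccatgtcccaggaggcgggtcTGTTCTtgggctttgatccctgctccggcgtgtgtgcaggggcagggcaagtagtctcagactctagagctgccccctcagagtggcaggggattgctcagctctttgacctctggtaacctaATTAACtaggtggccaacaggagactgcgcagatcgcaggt
The letters searched on both strands were GGAATG (TEAD, the DNA-binding partner of YAP), AAAGTCC (HNF4A), GTTAAT (HNF1) and AGAACA (glucocorticoid receptor). The capitals are TGTTCT, the reverse complement of AGAACA, and ATTAAC, the reverse complement of GTTAAT. Of 32851 RefSeq promoters of this length, 12.6% held GGAATG, 3.58% AAAGTCC, 6.43% GTTAAT and 16.1% AGAACA. The windows of Haao, Tdo2, Afmid, Kmo and Qprt were searched, and among these 5 GGAATG occurred only in Tdo2 and AAAGTCC in none, while GTTAAT and AGAACA occurred only in Haao. In mm9 the other 4 windows lay mostly in annotated exons (228 of 250 bases for Tdo2, 205 for Afmid, 197 for Kmo and 197 for Qprt) and that of Haao in none, so the 5 are unlike regions of their genes. These matches describe letters in a short window and not bound sites.

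After 7 days of YAP induction the liver had lower RNA of Haao and Kmo, and the same genes were lower at 7 than at 3 days. In the fit without depth Haao was 2.48-fold lower than in controls and Kmo 2.06-fold lower. With log2 depth as a covariate the log2 fold changes were -0.96 for Haao, which passed the threshold, and -0.69 for Kmo, which did not. Tdo2 and Qprt also lay below every control in all 3 livers but did not pass the threshold. Kynu and Afmid differed from controls by 0.12 or less on the log2 scale, and Acmsd had a higher mean that did not pass. At 3 days none of the 7 enzymes passed. Calls needed an adjusted p (Benjamini-Hochberg) under 0.01 with a log2 fold change beyond 0.5 in either direction, from limma on log2(eRPKM + 0.5) over all 11 livers, a scale that understates the change of low genes. By this rule 2 of the 7 enzymes were called at 7 days against control, both lower, against 23.8% of the 14244 genes tested in either direction and 5.77% called lower. At 7 against 3 days 2 of 7 were called, both lower, against 19.3% of all genes in either direction and 5.31% lower, and at 3 days against control 0 of 7 against 0.0421%. At an unadjusted limma p under 0.05 the enzymes numbered 0 of 7 at 3 days, 5 of 7 at 7 days against control and 4 of 7 at 7 against 3 days, beside 12.1%, 47.3% and 46.2% of all genes. The median log2 fold change at 7 days against control was -0.53 over the enzymes and 0.26 over all genes tested. The 2 comparisons with control share the control livers, and the 2 with 7 days share the 7-day livers. By the labels no control had 3 days of doxycycline food. Comparisons with the 3-day livers thus also differ in the length of feeding, which cannot be told apart from that of YAP induction.

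The libraries differed in ways that touch these genes. Reads on genes numbered 1237611 to 5482451 per control, 2645571 to 3668539 per 3-day liver and 5299122 to 5928825 per 7-day liver, so the 7-day livers were among the deepest. The reads per kilobase of the highest gene hardly followed this depth: they ranged from 1320 to 1549 over the 11 libraries, a 1.17-fold range, for a 4.79-fold range of depth. The value of Alb, the plasma albumin of hepatocytes, was 918 eRPKM in control liver 4, the shallowest, and 268 in control liver 2, the deepest control, although its reads per kilobase were 1183 and 1518. For such genes eRPKM was lower in deeper libraries and is not a share of the RNA. The handling of duplicate reads is not given in the sources used here for bulk RNA. By Xist and Ddx3y reads 2 of 4 controls, 2 of 4 3-day livers and 3 of 3 7-day livers were female, and the labels do not give the sex. The liver label fitted the markers, since all 7 hepatocyte markers were detected in every liver. Nothing in the labels says whether libraries of a group came from separate litters or preparation days, so p-values measure the spread between these livers.

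**Figure D1:**
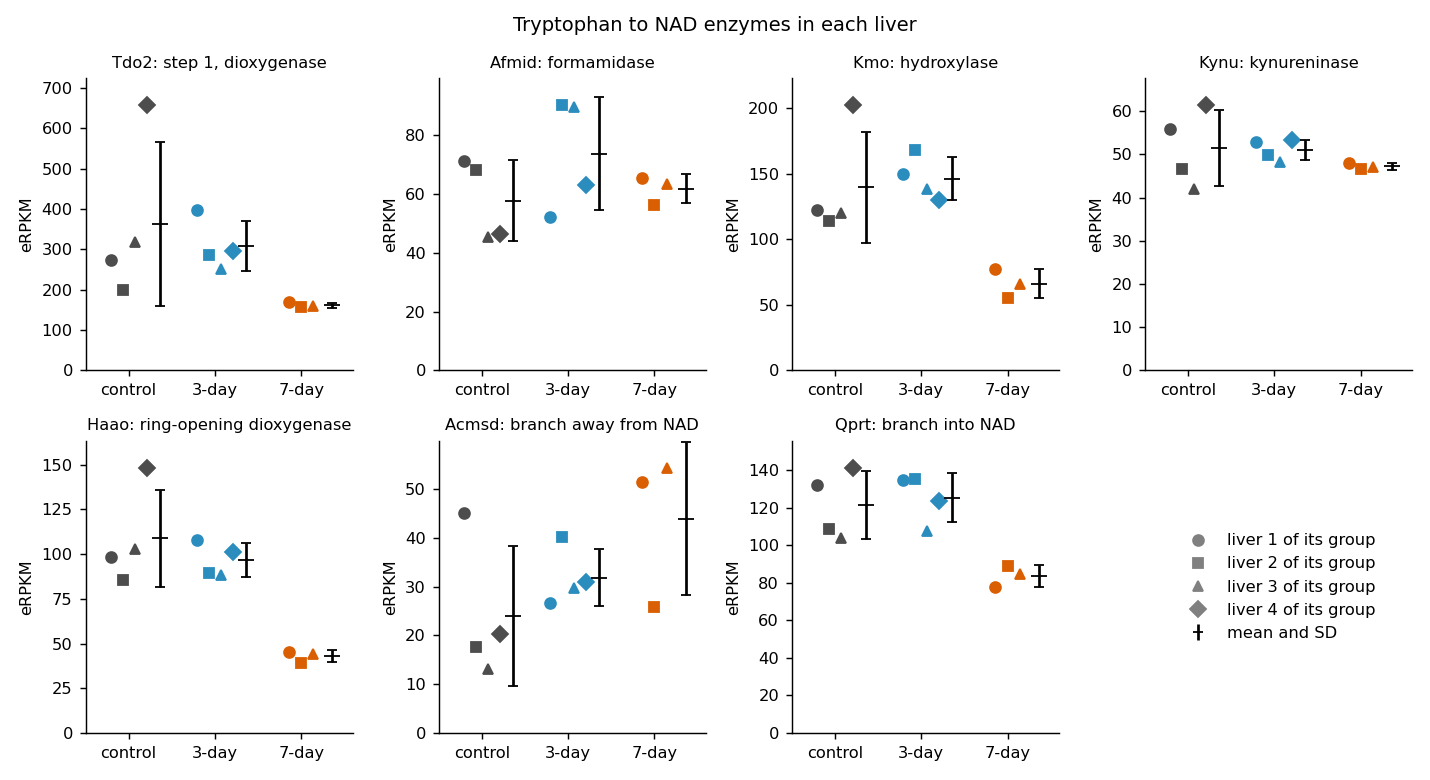
Points are eRPKM of each enzyme (vertical axis, starting at 0) in each liver, grouped as control, 3-day and 7-day, and the black mark and bar give the mean and SD of the group. The 7-day livers lie below every control for Tdo2, Kmo, Haao and Qprt, whereas those of Afmid, Kynu and Acmsd overlap the controls.

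Tdo2 (chr3:81761012-81780124, minus strand) was the highest of the enzymes per length in every group. In controls 1 to 4 it stood at 274, 200, 318 and 658 eRPKM. The 3-day livers held 397, 287, 252 and 296 eRPKM. At 7 days the values were 168, 157 and 158 eRPKM. The 3 livers at 7 days were close together and below all others, and control liver 4 stood far above the rest of its group. Against control the log2 fold change at 7 days was -1.02 (SE 0.31), which missed the threshold (limma adjusted p = 0.0219, exact permutation p = 0.0571), and at 3 days it was -0.11 (SE 0.29, adjusted p = 0.915). Between 3 and 7 days the log2 difference was -0.91 (SE 0.31, adjusted p = 0.0386).

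For Tdo2 the reads themselves followed depth little. Control livers held 1290 to 1849 Tdo2 reads, a 1.43-fold range, while their depth spanned 4.43-fold, and the eRPKM of the 4 controls fell in the order of their depth. Over all livers Tdo2 took 790 to 1132 reads per kilobase, close to the 1320 to 1549 of the highest gene. With log2 depth as a covariate the difference at 7 days was -0.26 (adjusted p = 0.170), and with only control livers 1 and 2, the 2 deepest, it was -0.54 (adjusted p = 0.0714). Without control liver 2 it passed the threshold at -1.26 (adjusted p = 0.00525). Depth and the 7-day group moved together in these libraries, and the part of depth in the Tdo2 difference cannot be told apart from that of the group.

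**Figure D2:**
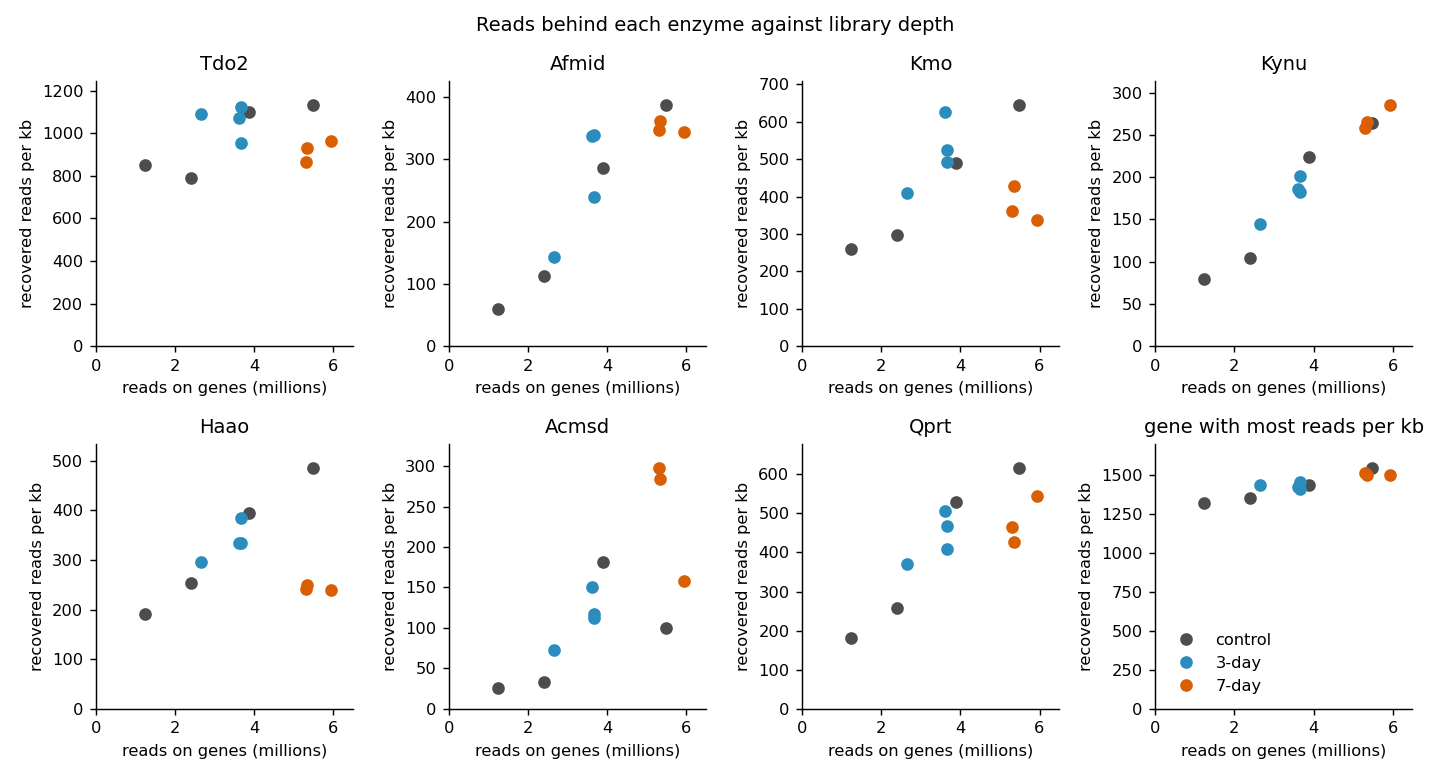
Each panel plots recovered reads per kilobase of an enzyme (vertical axis) against the reads on genes of the library (horizontal axis), with 1 point per liver and groups in color, and the last panel shows the gene with most reads per kilobase. Kynu increased with depth over all 11 livers, Tdo2 stayed between 790 and 1132 reads per kilobase at every depth, and the 7-day points of Haao and Kmo lie below those of control liver 2, which was as deep.

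Afmid (chr11:117670982-117701222, plus strand), the formamidase, varied within groups without a shift between them. Controls stood at 71.3, 68.3, 45.4 and 46.3 eRPKM. At 3 days the values were 52.3, 90.4, 89.6 and 63.0 eRPKM, and at 7 days 65.6, 56.2 and 63.6. All 3 groups overlapped. Against control, 3-day livers differed by 0.34 on the log2 scale (SE 0.21, adjusted p = 0.539). The 7-day difference was 0.12 (SE 0.23, 95% interval -0.36 to 0.61, adjusted p = 0.695), and under median-ratio size factors it was -0.14. Of 3753 GENCODE M1 exon bases of Afmid, 3.62% are shared with Syngr2 on the same strand and 2.21% with Tk1 on the other. The libraries carry no strand, so reads in shared bases cannot be assigned to a single gene. The length recovered from the Afmid values was 3384 bases, so their gene model differs and its shared part is not known. Exons of the other 6 enzymes overlap those of no other annotated gene.

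Kmo (chr1:177550512-177592247, plus strand) fell between 3 and 7 days. Its controls held 122, 114, 120 and 202 eRPKM. The 3-day livers were at 149, 168, 138 and 130 eRPKM. The 7-day livers were at 77.4, 54.8 and 66.1 eRPKM. Every 7-day liver lay below every control and every 3-day liver, and the 3-day livers overlapped the controls. The mean was 139 ± 42.1 eRPKM (SD, n = 4) in controls and 66.1 ± 11.3 (SD, n = 3) at 7 days. At 7 days Kmo was lower than control by a log2 fold change of -1.04 (SE 0.21, limma adjusted p = 0.00178, exact permutation p = 0.0286), and lower than at 3 days by -1.15 (SE 0.21, adjusted p = 0.00121). The smallest p that the exact test can give with 4 livers against 3 is 0.0286. Against control at 3 days the value was 0.10 (SE 0.19, adjusted p = 0.866). Kmo reads spanned 2.47-fold over the controls, for 4.43-fold in depth. With log2 depth as a covariate the 7-day difference from control was -0.69 and no longer passed (adjusted p = 0.0187), while with the 2 deepest controls alone it was -0.84 and passed (adjusted p = 0.00569). Without 7-day liver 2, which had the lowest Kmo, the call was lost against control (-0.92, adjusted p = 0.0130) and against 3 days (-1.02, adjusted p = 0.0101). In female livers only Kmo was -0.83 against control (adjusted p = 0.00926).

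Kynu (chr2:43410849-43538235, plus strand), which follows Kmo, passed the threshold in no comparison. Controls stood at 55.8, 46.7, 42.1 and 61.5 eRPKM. The 3-day livers held 52.8, 49.9, 48.2 and 53.2 eRPKM, and the 7-day livers 48.1, 46.6 and 47.2. The 7-day livers lay within the range of the controls and just below all 3-day livers. Against control its log2 difference was 0.00 at 3 days (SE 0.13) and -0.11 at 7 days (SE 0.15, 95% interval -0.42 to 0.21, adjusted p = 0.591). With depth as a covariate the 7-day value was 0.01. Kynu reads followed depth, with 340 to 1136 reads in controls.

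Haao (chr17:84230696-84246130, minus strand), which opens the hydroxyanthranilate ring, was called lower at 7 days against both other groups. Its values in controls were 98.5, 85.7, 103 and 148 eRPKM. At 3 days they were 108, 89.6, 88.4 and 101 eRPKM. At 7 days they were 45.3, 38.9 and 44.1 eRPKM. Controls averaged 109 ± 27.3 eRPKM (SD, n = 4) and 7-day livers 42.8 ± 3.38 (SD, n = 3). The 7-day group stood below both others, which overlapped. Its log2 fold change came to -1.31 (SE 0.18, limma adjusted p = 0.00013, exact permutation p = 0.0286) against control and -1.17 (SE 0.18, adjusted p = 0.000379) against 3 days. At 3 days against control it was -0.14 (SE 0.17, adjusted p = 0.769). Haao kept its call with depth as a covariate (-0.96, adjusted p = 0.000475), with the 2 deepest controls (-1.10, adjusted p = 0.000733), in female livers only (-1.13, adjusted p = 0.00143) and in every other alternative run against control, 22 in all, with adjusted p from 6.37e-06 to 0.00143. In reads, the 7-day livers held 655 to 686 Haao reads where control liver 2, of like depth, held 1334.

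Acmsd (chr1:129625990-129664141, plus strand), the decarboxylase that draws the intermediate away from NAD, had the lowest level of the enzymes in controls and at 3 days. Controls held 45.1, 17.7, 13.1 and 20.2 eRPKM. The 3-day livers held 26.6, 40.2, 29.6 and 31.0 eRPKM. The 7-day livers held 51.4, 25.9 and 54.4 eRPKM. Control liver 1 stood above the other controls and 7-day liver 2 below the other 7-day livers, so the groups overlapped, and 2 of 3 7-day livers exceeded all controls. At 3 days it differed from control by 0.54 on the log2 scale (SE 0.33, adjusted p = 0.545). The 7-day difference was 0.94 (SE 0.36, limma adjusted p = 0.0562, exact permutation p = 0.143), and neither passed the threshold. Without control liver 1 the 7-day value was 1.29 and passed (adjusted p = 0.00434). In female livers only it was 1.42 and passed (adjusted p = 0.00877), but the 2 female controls also leave out control liver 1. With log2 depth as a covariate it was 0.77 (adjusted p = 0.280). With the 2 deepest controls it was 0.55 (adjusted p = 0.343). Reads on Acmsd numbered 60 and 75 in the 2 shallowest controls, the fewest of any enzyme. Kidney tubule cells are the other known site of high Acmsd, and the 5 tubule markers summed to at most 1.32 eRPKM in any liver.

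Qprt (chr7:134250628-134265740, minus strand), the enzyme that commits quinolinate to NAD, was at 132, 109, 104 and 141 eRPKM in controls. It was at 135, 135, 108 and 124 eRPKM at 3 days. It was at 77.5, 88.7 and 84.9 eRPKM at 7 days. The 7-day livers lay below all others, with a smaller gap than for Haao. Qprt differed on the log2 scale by -0.53 (SE 0.15, limma adjusted p = 0.0162, exact permutation p = 0.0286) against control and -0.58 (SE 0.15, adjusted p = 0.0116) against 3 days, both short of the threshold. With depth as a covariate the difference from control was -0.40 (adjusted p = 0.0866), and after quantile normalization it was -0.16.

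**Figure D3:**
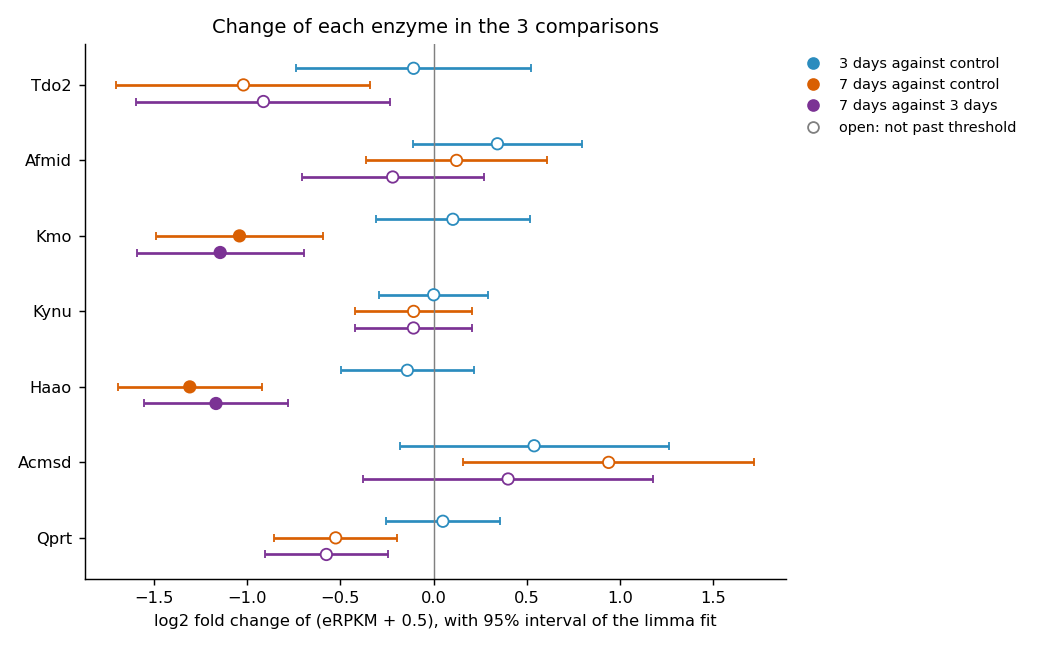
Points give the log2 fold change of (eRPKM + 0.5) of each enzyme (horizontal axis) in the 3 comparisons, with 95% intervals of the limma fit, and filled points passed the threshold. Haao and Kmo are filled in both comparisons with 7 days, every 3-day interval includes 0, and Acmsd at 7 days against control lies on the other side of 0, at 0.94.

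Counted without a model, 4 of the 7 enzymes had all 7-day livers below all controls, against 13.3% of all genes tested, and 5 of 7, Kynu included, had them below all 3-day livers, against 13.8%. None had a 7-day group above all controls, a position that 36.7% of all genes took. These positions take no account of depth. Every 7-day library was deeper than every 3-day library and than every control but liver 2. The part of depth in the positions was not tested. Over the 21 exact tests of single enzymes the lowest p after Benjamini-Hochberg adjustment was 0.0857, so none passed 0.05 by that test, which cannot give less than 0.0286 before adjustment.

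The order of the levels changed with these differences. In controls it ran Tdo2, Kmo, Qprt, Haao, Afmid, Kynu and Acmsd by mean eRPKM, but of neighbours in that order only Haao and Afmid had ranges that did not overlap. At 3 days the order was the same, and Tdo2 with Kmo and Kynu with Acmsd were the neighbours whose ranges stood apart. At 7 days it ran Tdo2, Qprt, Kmo, Afmid, Kynu, Acmsd and Haao, with Tdo2 and Qprt, Qprt and Kmo, and Afmid and Kynu apart. Haao went from the fourth place to the last, although at 7 days its range overlapped that of Acmsd.

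In ratios taken within each liver the scaling factor of the library cancels, but depth need not: over the controls Haao reads spanned 2.54-fold and Acmsd reads 6.95-fold, for 4.43-fold in depth. At the fork, the linear ratio of Haao to Acmsd was 2.18, 4.85, 7.82 and 7.34 in controls. It was 4.07, 2.23, 2.98 and 3.27 at 3 days. It was 0.880, 1.51 and 0.811 at 7 days. The 7-day livers lay below every other liver, and in 2 of them Acmsd exceeded Haao per length, which occurred in no other liver. On the log2 scale the mean fell by 2.25 from control to 7 days (exact permutation p = 0.0571) and by 1.57 from 3 to 7 days (exact permutation p = 0.0286). With the 2 deepest controls alone the difference from control was -1.65 (exact permutation p = 0.1, the smallest that 3 livers against 2 allow). The linear ratio of Qprt to Acmsd, the enzymes that lead into and away from NAD, spanned 2.93 to 7.93 in controls, 3.36 to 5.07 in 3-day livers and 1.51 to 3.43 in 7-day livers. Its groups overlapped, and the log2 difference from control at 7 days was -1.47 (exact permutation p = 0.0857), or -1.07 with the 2 deepest controls (exact permutation p = 0.3).

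The ratio of Kmo to Kynu, which act in sequence, spanned 2.18 to 3.29 in controls, 2.43 to 3.36 in 3-day livers and 1.18 to 1.61 in 7-day livers. No 7-day liver overlapped another group, and the log2 difference at 7 days was -0.94 from control (exact permutation p = 0.0286), -0.73 from the 2 deepest controls (exact permutation p = 0.1) and -1.04 from 3 days (exact permutation p = 0.0286). Kynu stood at 0.0934 to 0.234 of Tdo2 in controls, 0.133 to 0.191 in 3-day livers and 0.286 to 0.298 in 7-day livers. The log2 ratio of Kynu to Tdo2 was higher at 7 days by 0.91 than in controls (exact permutation p = 0.0571), and by 0.43 with the 2 deepest controls alone. Over the controls this ratio rose in the order of depth, with Kynu reads spanning 3.34-fold and Tdo2 reads 1.43-fold. The part of depth in the 7-day difference of this ratio was not tested. Adjusted over the 12 tests of 4 ratios in 3 comparisons, the lowest p was 0.0857, so no ratio passed 0.05.

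**Figure D4:**
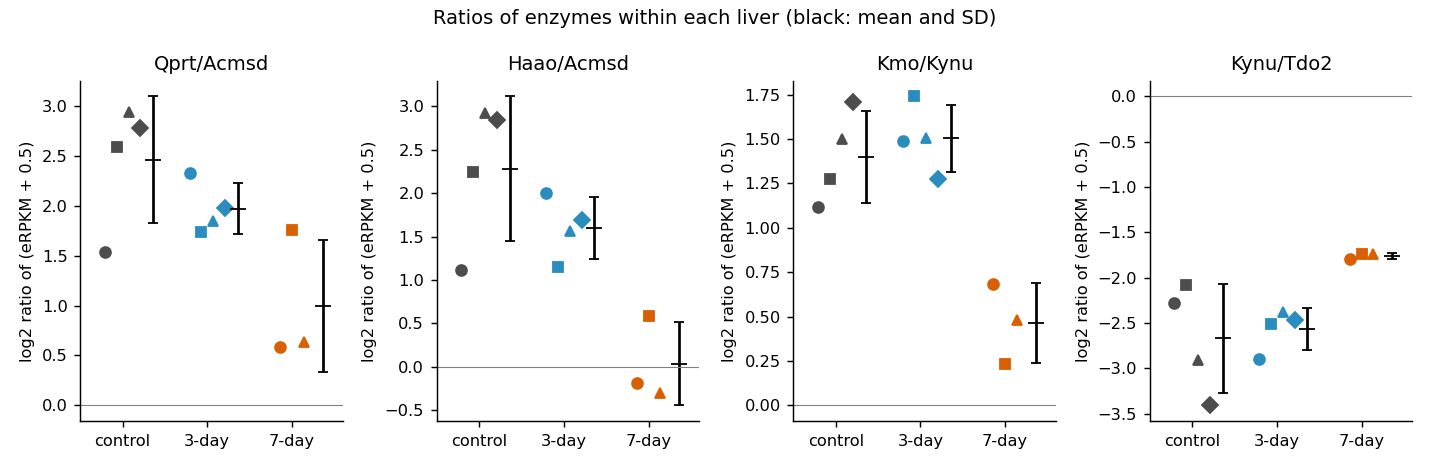
Points are log2 ratios of (eRPKM + 0.5) of paired enzymes within each liver (vertical axis) by group, with black marks and bars for mean and SD, and the grey line marks equal levels. In Haao/Acmsd the 7-day livers lie around 0 and below all other livers, and in Kmo/Kynu they also lie below all others.

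Among themselves the 7 profiles over the 11 livers, each centred on its own mean on the log2 scale, were closest for Kmo and Haao (root mean square difference 0.193) and farthest for Haao and Acmsd (1.04). The same measure over 9323 other genes with a mean of at least 5 eRPKM gave the genes most like each enzyme. The profiles take no account of depth. The parts of depth and of the 7-day group in this likeness were not tested. For Haao these were Slc25a15 (0.0821), the mitochondrial ornithine carrier of the urea cycle, and Hagh (0.0945), a glyoxalase. For Kmo they were Gcdh (0.142), which oxidizes the glutaryl-CoA that the same pathway yields, and Cyp2f2 (0.158), and for Tdo2 they were Mug1 (0.0833) and Mgst1 (0.106). Acmsd had no profile closer than Pim1 (0.297) and Hgh1 (0.308). The remaining enzymes had Uqcc1 and Hemk1 (Afmid), Ncoa4 and Gm6813 (Kynu), and Stard7 and Rdx (Qprt) nearest.

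The rest of tryptophan and NAD metabolism was read from lists of 56 further genes in the table, of which 52 were tested. At 7 days 13 of the 52 fell and 6 rose, at 7 against 3 days 13 fell and 3 rose, and at 3 days none passed. Over all genes tested 5.77% fell and 18.0% rose at 7 days against control, and 5.31% fell and 1997 of 14244 rose at 7 against 3 days. The median log2 fold change of the 52 at 7 days was -0.31, beside 0.26 for all genes. With depth as a covariate 10 of the 52 were called at 7 days, and 12 with the 2 deepest controls, while the calls over all genes went from 3383 to 1676 and 1985.

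Upstream and in side branches 3 of 8 tested genes fell at 7 days and none rose. Ido2, a dioxygenase of low activity with the chemistry of Tdo2, went from 28.5 to 43.9 eRPKM in controls to 7.25 to 12.2 (log2 fold change -1.92, SE 0.24, adjusted p = 6.76e-05). Aadat, an aminotransferase that makes kynurenic acid from kynurenine, fell by 1.21 (SE 0.25, adjusted p = 0.00205), and the third was the monoamine oxidase Maob. Ido1, the interferon-inducible dioxygenase, stayed under the filter, at no more than 0.734 eRPKM in any liver. Got2, an abundant aminotransferase of mitochondria, stood at 137 eRPKM in controls and 118 at 7 days (log2 fold change -0.21, adjusted p = 0.349).

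Downstream of Acmsd 2 of 7 genes of the glutarate branch fell and none rose. Aldh8a1, which oxidizes the product of Acmsd, was at 147 to 228 eRPKM in controls and 71.3 to 88.2 at 7 days (log2 fold change -1.14, SE 0.17, adjusted p = 0.000241). Gcdh was at 162 to 298 and 89.8 to 107 eRPKM (log2 fold change -1.07, SE 0.20, adjusted p = 0.00106). These enzymes downstream of Acmsd were thus lower at 7 days, while Acmsd itself had a higher mean that did not pass.

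Beyond Qprt 1 of 12 genes of NAD synthesis, the mitochondrial NAD kinase Nadk2, fell at 7 days, and none rose. The entry from nicotinamide, Nampt, stood at 39.6 to 62.3 eRPKM in controls and 57.1 to 62.4 at 7 days (log2 fold change 0.22, adjusted p = 0.404). Naprt, the entry from nicotinic acid, differed by -0.495 (SE 0.13, adjusted p = 0.00967), just inside the fold limit of 0.5, and was called lower at 7 against 3 days (-0.68, adjusted p = 0.00189). Nmnat1, which joins the mononucleotide to adenylate in the nucleus, stood at 10.7 and 8.53 eRPKM (log2 fold change -0.31, adjusted p = 0.296).

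Genes that consume NAD or clear nicotinamide moved both ways at 7 days, with 4 of 14 higher and 4 lower. Nnmt, which methylates nicotinamide, fell by 1.73 on the log2 scale (SE 0.29, adjusted p = 0.000522). The aldehyde oxidases that act on methylnicotinamide fell with it, Aox3 from 96.4 to 213 eRPKM in controls to 4.83 to 7.53 (log2 fold change -4.33, SE 0.38, adjusted p = 6.25e-06) and Aox1 by 1.38 (SE 0.31, adjusted p = 0.00366), although these are related genes between which reads may be shared. The peroxisomal NADH hydrolase Nudt12 was the fourth. Cd38, an NAD glycohydrolase abundant on immune cells, rose from 18.6 to 21.1 eRPKM to 52.1 to 56.5 (log2 fold change 1.45, SE 0.17, adjusted p = 5.37e-05). Its relative Bst1 rose from at most 0.0722 eRPKM in a control to a mean of 0.840 at 7 days, too few reads for a firm fold, and Sirt6, an NAD-dependent deacylase of chromatin, rose from 1.16 to 4.53 eRPKM by means (log2 fold change 1.68, SE 0.37, adjusted p = 0.00368). Parp2 also rose.

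Of 5 tested transporters of tryptophan 2 rose and 1 fell at 7 days. Slc7a8, a light chain of the exchangers of large neutral amino acids, rose from 1.57 to 3.28 eRPKM to 10.8 to 18.2 (log2 fold change 2.30, SE 0.28, adjusted p = 5.76e-05), and its heavy chain Slc3a2 also rose. Slc16a10, which lets aromatic amino acids through the membrane, fell by 1.60 (SE 0.15, adjusted p = 1.15e-05). Of 6 transcription factors known to act on amino acid enzymes of hepatocytes 2 fell. Ppara, a regulator of fat burning in the fasted liver, fell by 1.35 (SE 0.17, adjusted p = 7.02e-05), and Nr3c1, the glucocorticoid receptor, fell by 0.60 (SE 0.15, adjusted p = 0.00855). Hnf4a stood at 159 eRPKM in controls and 124 at 7 days (log2 fold change -0.35, adjusted p = 0.0662). Maob, Nadk2, Nudt12, Gcdh, Parp2, Slc3a2 and Nr3c1 were named after their values were seen.

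**Figure D5:**
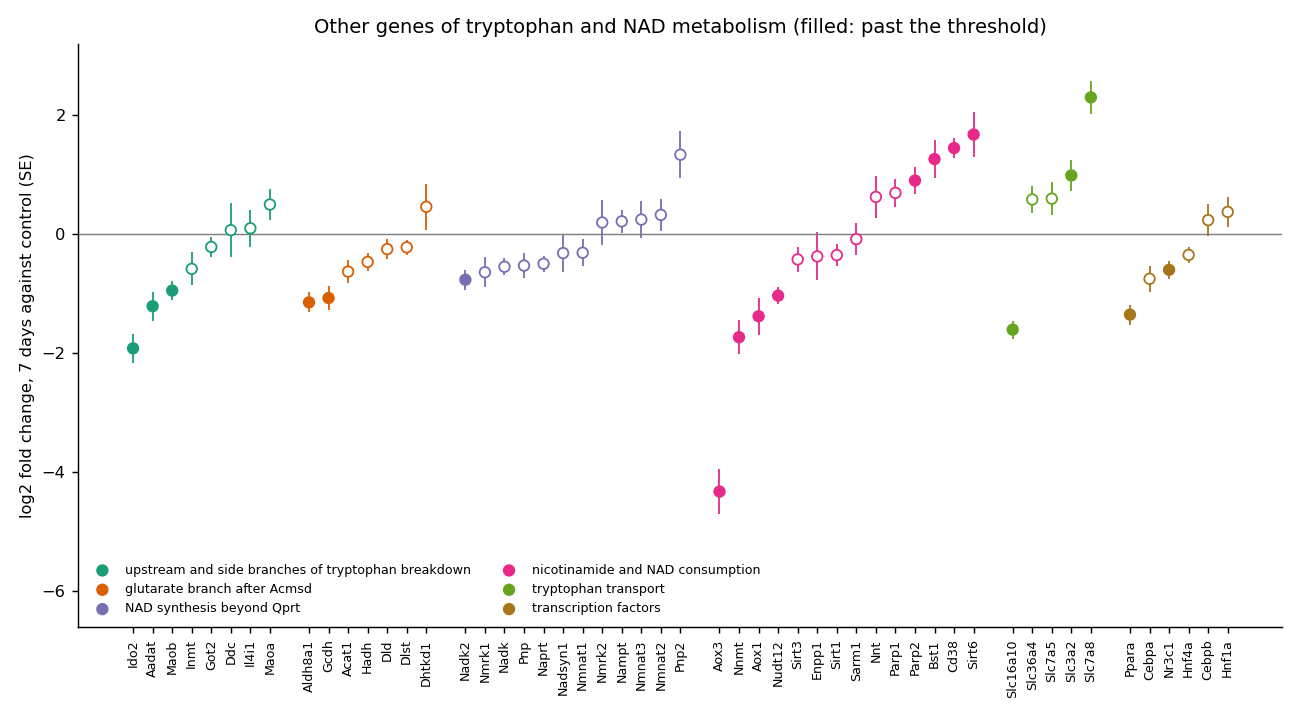
Each point is a tested gene of the lists around the pathway, with its log2 fold change at 7 days against control (vertical axis) and SE, and genes are ordered by value within their list, and filled points passed the threshold. Filled points lie only below 0 among upstream genes, the glutarate branch, NAD synthesis and transcription factors, and on both sides of 0 among NAD consumption and transport.

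Some markers of cell types were also called at 7 days against control, where 18.0% of all genes tested rose and 5.77% fell. In bulk RNA fewer cells of a type and less RNA per cell cannot be told apart. Of 9 Kupffer cell and macrophage markers 7 rose, and their summed level was 238 to 486 eRPKM in control, 304 to 547 in 3-day and 906 to 982 in 7-day livers, with none at 0 in any liver. Of 7 hepatocyte markers 1, Ttr, fell, with sums of 1368 to 3956, 1677 to 2139 and 1145 to 1282 eRPKM. Alb alone gave 918 of the highest of these sums and 268 eRPKM in the deepest control, so the sums moved with depth and do not measure hepatocyte content. Of 6 biliary markers 2 rose, with sums of 37.5 to 49.0, 40.5 to 84.7 and 62.2 to 112 eRPKM, and Cldn4 at 0 in all controls. Of 6 endothelial markers 2 rose and of 6 stellate cell markers 1 fell, with sums of 109 to 193 and 156 to 217 eRPKM in controls and 183 to 218 and 108 to 127 at 7 days. None of 6 T and B cell markers passed, with sums of 2.46 to 7.29 and 3.73 to 8.68 eRPKM. The part of these cells in the values of the enzymes was not tested.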

How the data were processed

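Total RNA of whole liver was made into libraries with an unstranded kit, and the authors aligned the reads to mm9 with TopHat 2.0.8; featureCounts 1.4.5-p1, SAMtools and DESeq2 are named in the submitters' processing notes, without their role. The deposited value for each liver is an eRPKM, a kind of RPKM that the authors scaled to library size. Besides, 3 deposited columns hold the authors' own comparison of 7 days with control (mean signal, log2 fold change, adjusted p-value) and were not used here. The step of each gene, its value for 1 read, was chosen so that its values lay within 0.1 of whole reads, which gave reads and depth. That closeness held for all 177553 values above 0 by construction and is no check. Of 14015 genes with reads in at least 10 livers, 14011 had steps that gave a whole length in bases, within 0.05. Genes that reached 0.5 eRPKM in 3 or more livers were tested with limma 3.58.1 (R 4.3.3, eBayes with trend) on log2(eRPKM + 0.5). The fit had 3 groups and no covariate. It was also run on simulated reads that rose in proportion to depth. That run cannot test the fit for high genes, whose reads hardly followed depth here. A count test planned for whole-number counts was not run, since the table holds none. Single enzymes and ratios had exact two-sided permutation tests (scipy 1.17.1). Groups came from the labels. Other pathway genes are named if among the 12 largest called changes at 7 days or if they are the main liver gene of a step. The enzymes and gene lists were chosen with earlier results of these data known. Alternatives were other pseudocounts, filters, scalings and covariates, the replicate block, limma-voom on recovered reads, female livers, leaving out each liver and, chosen after seeing the data, only the 2 deepest controls. Positions are from GENCODE M1. Promoter windows of 2 enzymes are not reported here.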

Additional observations from a re-analysis of the deposited data

Results flagged for a closer look

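Kmo stood out in control liver 4, whose gap to the next control was 0.907 of the range of the group, more than Dixon's 95% limit for 4 samples allows. Of 22 sets examined 1 was marked in this way, and chance marks about 1 in 20. That library was the shallowest, and Tdo2 and Haao were also highest in it among controls. The change of Kmo against control differed between 7 and 3 days by -1.15 on the log2 scale (limma adjusted p = 0.00121), and that of Haao by -1.17 (adjusted p = 0.000379), and in both the 3 livers at 7 days lay below all 4 at 3 days.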

How the results depend on the processing

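Haao kept its call in all 22 alternatives against control and all 21 against 3 days, and Kmo in 20 of 22 and 20 of 21. No alternative called any enzyme at 3 days against control. At 7 days against control 1 enzyme was called with log2 depth as a covariate and 4 at an adjusted p under 0.05 with any fold, and leaving out single livers gave 1 to 3, with 1 without 7-day liver 2 and 3 without control liver 1 or 2. Of all 14244 genes tested, 1676 were called with depth, 5390 at an adjusted p under 0.05 and 1978 to 3229 without single livers. At 7 against 3 days 4 were called with only the 2 groups compared in the fit and 4 at an adjusted p under 0.05, and 1 to 3 with single livers left out, 1 without 7-day liver 2 and 3 without 3-day liver 3. Over all genes tested, this comparison gave 1343 to 3683 calls with single livers left out. For the other 2 settings the calls over all genes are not given here. The counts of 4 enzymes therefore stand without a share to be read against. Of the other pathway genes 12 were called at 7 days with no filter, 10 with depth, 12 with the 2 deepest controls, and 11 to 17 with single livers left out (11 without 7-day liver 3 and 12 without 7-day liver 2), and at 7 against 3 days the latter gave 11 to 19. Over all genes 2617 were called at 7 days against control with no filter, against 3383 in the main fit. The cause of these changes in the counts was not tested. Among small differences that changed sign, at 3 days Tdo2 was 0.058 after quantile normalization, 0.093 with depth and 0.12 in female livers, Haao 0.014 in female livers, Qprt -0.0047 with the label suffix MF, whose meaning is not given, as covariate, and Kynu -0.023 with size factors, -0.11 with quantiles, -0.0052 with Xist and -0.026 with MF. With single livers left out at 3 days, Tdo2 ran from -0.34 to 0.23 (without control liver 4), Kynu from -0.090 (without control liver 3) to 0.090, Haao from -0.24 to 0.018 (without control liver 4) and Qprt from -0.020 (without control liver 3) to 0.13. At 7 days against control Afmid was -0.14 with size factors, -0.23 with depth and -0.18 with the 2 deepest controls, and Kynu 0.012 with depth and 0.092 in female livers. At 7 against 3 days quantiles gave 0.042 for Afmid and 0.055 for Kynu. The ratio of Kynu to Tdo2 at 3 days ran from -0.14 to 0.30 with single livers left out, against 0.11 in full, and at 7 days it was 0.43 with the 2 deepest controls. Size factors moved the median of all genes at 7 days from 0.26 to 0.03, and quantiles to -0.08, and Haao was -1.60 and -1.10 relative to these medians. The replicate numbers did not pair the livers. Over 10 same-numbered pairs the correlation of deviations was -0.222 to 0.269, and 1 liver correlated best with its own number. With the replicate number as a block, Haao was -1.22, Kmo -0.97 and 2 enzymes were called at 7 days, as without it. Acmsd held 60 reads in the shallowest control, the fewest of any enzyme.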
